A study of Homo sapiens with 10 samples.

Results

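The genes of the cytosolic ribosome were followed in human embryonic stem cells, by the subunit their proteins belong to. Members were the protein-coding genes whose GENCODE symbol begins with RPL or RPS and a digit, with RPSA, RPLP0, RPLP1, RPLP2 and FAU added and the RPS6K kinases and RPS19BP1 left out. The rule named 91 genes, of which 89 were in the count table of 55841 gene identifiers, 55 for the large and 34 for the small subunit. RPS10-NUDT3 and 1 Y-linked gene had no matching identifier. Of the 91, 46 were canonical members of the large and 32 of the small subunit, and the others were 8 autosomal paralogs, 3 readthrough genes and 2 Y-linked genes, of which no level is given. The rule used names only, so every comparison of levels was independent of it.

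The libraries came from a line that the labels call HES9, grown in mTESR1 with matrigel, and the study's text names WA09 cells. The 5 general libraries were made from the unsorted population and the 5 HHH libraries from the sorted cells with the most GCTM-2, CD9 and EPCAM on their surface, all markers of stem cells. Batch 1 held 2 general and 2 HHH libraries and batch 2 held 3 of each, with no other agent or genotype on any label. Whether 2 libraries of a group came from separate cultures is not given, so p-values measure the spread between these libraries. A general culture also holds HHH cells, and an RNA level in bulk does not separate fewer cells of a type from less RNA per cell. Totals ran from 47242595 to 78503395 counts, and 3 counts stood for 0.0460 to 0.0687 CPM, the unit of levels below, in which counts are divided by the TMM-scaled library size and set to a common total. All 7 pluripotent stem cell markers were above 1 CPM, with summed levels of 4350 to 5626 CPM in general and 4155 to 5478 CPM in HHH, and 1 was called higher and 1 lower in HHH.

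The cytosolic ribosome makes most proteins of the cell from mRNA. Its large subunit joins amino acids and its small subunit reads the mRNA, and each holds many proteins in single copies. Most of their mRNAs start with a C followed by a run of pyrimidines, the 5′ terminal oligopyrimidine (TOP) start, through which growth signals set their translation. Some of the proteins have a paralog, a second gene for a related protein that can take the same place in the ribosome. Reads from paralogs, and from the processed pseudogenes that most members have, can be hard to assign.

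The starts of named members are shown because the pyrimidine run is the feature that most members share. RefSeq starts (GRCh38.p14) were matched for 72 of the 89 members. Each line holds 10 bases before the start site and 20 from it, and capitals mark a C at the start with at least 4 pyrimidines after it and the rest of that run.
RPL22: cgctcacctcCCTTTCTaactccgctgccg
RPL22L1: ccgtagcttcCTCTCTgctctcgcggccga
RPS27: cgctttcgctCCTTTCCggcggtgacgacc
RPS27L: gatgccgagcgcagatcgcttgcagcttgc
RPL36A: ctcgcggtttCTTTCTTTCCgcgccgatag
RPL36AL: tcttccctttcctgttaggcgagagctgcg
RPL39: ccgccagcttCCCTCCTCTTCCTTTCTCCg
RPL7L1: gtgcggcgccgtagctaggagcggacgcca
RPLP0: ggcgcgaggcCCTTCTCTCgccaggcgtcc
RPLP1: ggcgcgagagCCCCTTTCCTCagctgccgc
RPS6: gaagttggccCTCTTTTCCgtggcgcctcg
RPS16: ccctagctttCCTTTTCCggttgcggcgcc
These windows lie at chr1:6199576-6199605 (RPL22, minus strand), chr3:170870176-170870205 (RPL22L1, minus), chr1:153990752-153990781 (RPS27, plus), chr15:63157458-63157487 (RPS27L, minus), chrX:101391001-101391030 (RPL36A, plus), chr14:49620607-49620636 (RPL36AL, minus), chrX:119791611-119791640 (RPL39, minus), chr6:42879606-42879635 (RPL7L1, plus), chr12:120201092-120201121 (RPLP0, minus), chr15:69452808-69452837 (RPLP1, plus), chr9:19380217-19380246 (RPS6, minus) and chr19:39435930-39435959 (RPS16, minus).

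A TOP start was listed for 47 of 63 canonical members (74.6%), against 5.1% of the 27305 genes with a start in the same table. Of the 6 paralogs with a listed start only RPL22L1 had one. RPL10L, RPL26L1, RPL36AL, RPL7L1 and RPS27L had no such run, although RPL36AL began with a shorter run of pyrimidines. The printed bases before the RPL36AL start are all pyrimidines too, so its lack of a TOP start depends on the exact position listed. Presence or absence of the run was read at the listed start sites only, for every gene. In the 300 bases from 250 before to 50 after the start, CCGGAAG, a motif of the ETS factors, was found on either strand in 22 of the 63 canonical members (34.9%) and in 12.2% of all genes. AAGATGGC, a YY1 motif, was found in 11.1% against 3.5%, GGGCGG, an SP1 motif, in 58.7% against 48.3%, and TATAAA in 7.9% against 14.0%. The RPL22L1 window held AAGATGGC and TATAAA. These matches describe the letters and show no binding.

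RPL22L1 was the only member called between the populations. It encodes a paralog of RPL22 (RPL22L1, chr3:170864875-170870208, minus strand; RPL22, chr1:6185020-6209389, minus strand, both GRCh38), and RPL22 protein is known to hold RPL22L1 mRNA down. In batch 2 the general libraries read 84.8, 77.4 and 59.8 CPM of RPL22L1 and the HHH libraries read 123.6, 118.5 and 156.6 CPM. Every HHH library of that batch was above every general one. In batch 1 the general libraries read 138.7 and 172.3 CPM and the HHH libraries 210.0 and 157.6 CPM, and the groups overlapped. Over all 10 libraries RPL22L1 was 1.52-fold higher in HHH, at a log2 fold change of 0.60 (adjusted p = 0.0205 in edgeR with batch as a term, SE 0.14).

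Within batches, the log2 fold change of RPL22L1 was 0.84 (adjusted p = 0.0014, SE 0.13) in batch 2 and 0.24 (adjusted p = 0.594, SE 0.16) in batch 1. The difference between them, tested as an interaction, was 0.60 (adjusted p = 0.199, SE 0.24). Leaving out general batch 2 replicate 2 ended the call (adjusted p = 0.0605 at 0.58), and so did leaving out replicate 3 of the same group (adjusted p = 0.0534 at 0.49). It was also lost with no batch term (adjusted p = 0.618) and on the authors' log2 values (adjusted p = 0.248). Without HHH batch 2 replicate 3, the highest HHH library of that batch, it was 0.50 (adjusted p = 0.0382).

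RPL22 itself, an RNA-binding protein of the large subunit, ran from 172.8 to 191.4 CPM in general and from 156.6 to 212.2 CPM in HHH. Its log2 fold change was 0.03 (adjusted p = 0.879, SE 0.07). That value joins opposite orders: both HHH libraries of batch 1 (156.6 and 165.4 CPM) were below the general ones (172.8 and 180.0 CPM), and the 3 HHH libraries of batch 2 (193.2 to 212.2 CPM) were above the general ones (175.1 to 191.4 CPM). Neither batch was called, at -0.14 (adjusted p = 0.657) and 0.12 (adjusted p = 0.351), nor was the interaction, at 0.26 (adjusted p = 0.285). The counts of each whole gene, fragments outside the coding sequence included, were also divided by its coding length. By that measure RPL22L1 stood at 42.3% of RPL22 in the general and at 69.4% in the HHH libraries of batch 2. It stood at 92.7% and 120.3% in those of batch 1. These percentages are descriptions of the same counts.

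**Figure D1:**
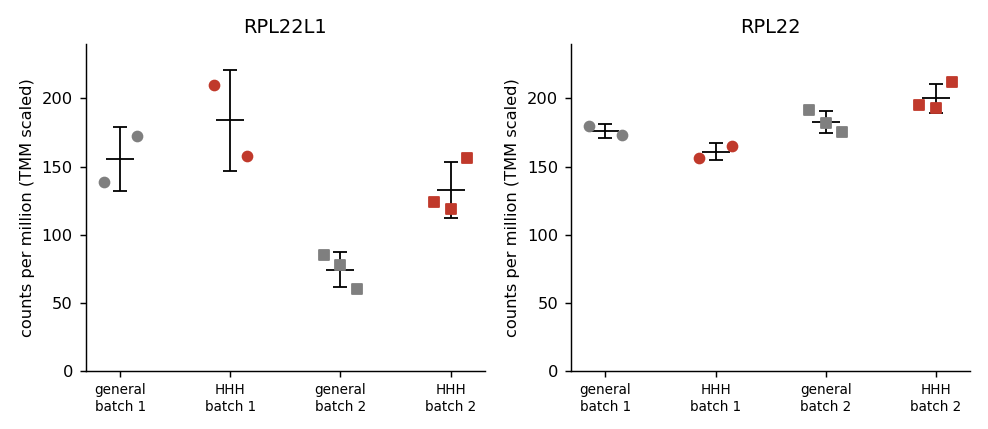
TMM-scaled CPM of RPL22L1 (left) and RPL22 (right) in each library, by population and batch. Points are libraries, circles for batch 1 and squares for batch 2, and bars give the mean and SD (n = 2 or 3). RPL22L1 separates the populations in batch 2, where general lies at 59.8 to 84.8 and HHH at 118.5 to 156.6. RPL22 has HHH below general in batch 1 and above it in batch 2, within 156.6 to 212.2.

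The coding sequences of the pair are shown where they are most alike, since reads from such a stretch are the hardest to assign. Their 367 aligned bases were 70.6% identical and the longest identical run was 17 bases. The printed stretch of 90 bases runs in RPL22 from coding base 220 to 309 and in RPL22L1 from 202 to 291, with the 20 bases that differ in capitals (GENCODE 44 canonical transcripts).
RPL22: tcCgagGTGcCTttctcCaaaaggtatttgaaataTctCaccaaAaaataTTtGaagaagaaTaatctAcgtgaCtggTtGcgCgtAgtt
RPL22L1: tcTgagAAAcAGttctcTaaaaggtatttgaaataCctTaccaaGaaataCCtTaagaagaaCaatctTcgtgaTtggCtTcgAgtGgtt
RPL22L1 had no pseudogene by name and shared no exonic base with another gene, while 20 pseudogenes of RPL22 were in the count table.

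Some markers of other cell types also differed between the populations, and others overlapped or went the other way. Of 5 neural markers 4 were tested and 2 were called lower in HHH. The summed level of the 5 was 4.49 to 12.1 CPM in general and 1.18 to 1.56 CPM in HHH. Only 1 of the 5 had a mean of at least 1 CPM. The 5 fibroblast markers summed to 115.5 to 138.2 CPM in general and 77.9 to 118.8 CPM in HHH, with 1 called lower. The 4 trophoblast markers summed to 5.36 to 10.02 CPM in general and 3.27 to 5.24 CPM in HHH, with 1 called lower and 3 at no more than 3 counts in every library. The 4 mesoderm markers summed to at most 1.25 CPM, and the populations overlapped. The 4 endoderm markers summed to at most 1.72 CPM, with 3 at no more than 3 counts in every library. In batch 1 their sum was higher in HHH, at 1.40 to 1.72 CPM against 0.15 to 0.92 CPM in general. In batch 2 it overlapped. Whether cells of these types were present, and any part of theirs in the RPL22L1 difference, was not tested.

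Across the other members the populations differed by little. Of the 89 members 87 passed the filter on low counts, and RPL10L was among the others. The filter needs about 10 counts in a group's number of libraries. Of the 87, 1 was called higher and 0 lower (14 at an unadjusted p under 0.05), while 1.94% of all 23552 tested genes were called higher and 3.89% lower. In DESeq2 and in limma with voom 1 member was called as well, against 1983 and 1378 of all 23552 tested genes. Of the 87 members, 82 had a log2 fold change within 0.25 of 0.

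The small differences leaned one way. The log2 fold change was above 0 in 80 of 87 members, against 53% of all tested genes, and its median was 0.12, against 0.02 over all genes. The large subunit had a median of 0.11 (49 of 54 above 0) and the small subunit a median of 0.13 (31 of 33 above 0). Members share their libraries and move together, so the number of members is no measure of certainty. It differed between batches and with 1 library. In batch 1 the median was -0.03 (35 of 87 above 0, against 50.8% of all genes) and in batch 2 it was 0.19 (80 of 87, against 49% of all genes). Without HHH batch 2 replicate 3 the median over both batches was 0.03, with 60 of 87 above 0, and in batch 2 it was 0.09, with 74 of 87 above 0.

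**Figure D2:**
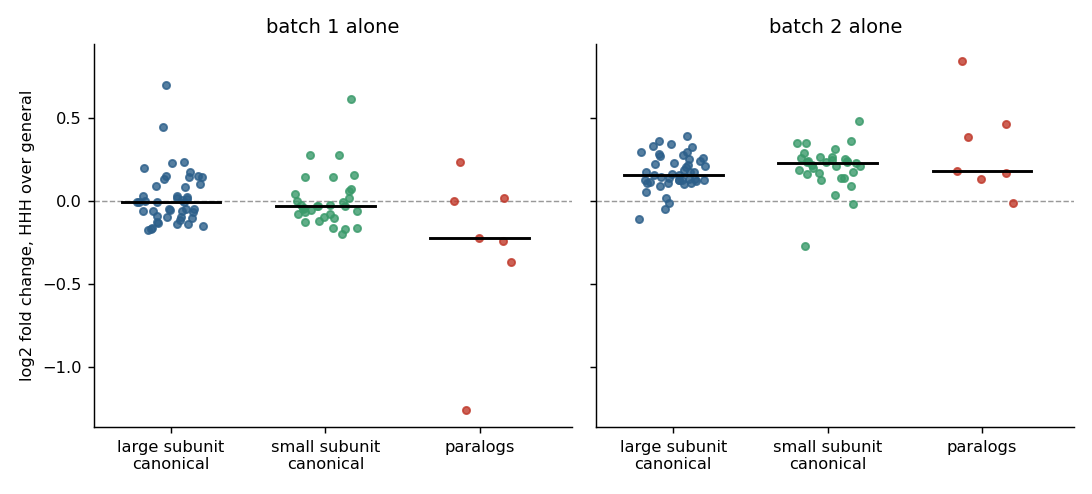
Log2 fold change of HHH over general for the tested canonical members of each subunit (46 large, 32 small) and the 7 tested paralogs, in batch 1 alone (left) and batch 2 alone (right). Points are genes and black lines are medians. Canonical members centre on -0.01 (large) and -0.03 (small) in batch 1 and on 0.16 and 0.23 in batch 2, and RPL22L1 is the highest point of batch 2 at 0.84.

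No member was called in batch 1 alone, where 0.573% of all tested genes were called (edgeR, 5 members at an unadjusted p under 0.05). In batch 2 alone 3 members were called higher and 0 lower (25 at an unadjusted p under 0.05), against 5.13% of all tested genes called higher. They were RPL22L1, RPS29 and RPL26L1. Without HHH batch 2 replicate 3, RPL22L1 was the 1 called, at a log2 fold change of 0.71 (adjusted p = 0.00699). In that fit 869 of all 24709 tested genes were called higher and 1263 lower. No member was called for the interaction of batch and population (edgeR, 12 at an unadjusted p under 0.05), for which 0.777% of all tested genes were called. The smallest adjusted p was 0.124, for RPLP1.

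RPS29, a small zinc-binding protein of the small subunit, read 148.6, 165.5 and 133.3 CPM in the general libraries of batch 2 and 178.8, 190.5 and 257.9 CPM in the HHH libraries. Those groups did not overlap, and its log2 fold change was 0.48 (adjusted p = 0.0296, SE 0.13). Without HHH batch 2 replicate 3 it was 0.31 (adjusted p = 0.0604). In batch 1 the HHH libraries read 458.0 and 390.0 CPM against 463.5 and 416.1 CPM, a log2 fold change of -0.06 (adjusted p = 0.889). Over all libraries RPS29 was not called (0.27, SE 0.13, adjusted p = 0.235).

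In batch 2 every HHH library was above every general one in 32 of the 87 members (36.8%), against 18.1% of all tested genes, and 0 had every HHH library below, against 18.2% of all genes. Without HHH batch 2 replicate 3 32 were above, against 22.6% of all genes, and 2 below, against 21.4%. In batch 1 it was 12 of 87 (13.8%), against 22.5% of all genes, and 11 were below, against 21% of all genes. RPL35 and RPL38, both of the large subunit, were above in both batches, as were 3.93% of all tested genes, so the count is no result about the members. RPL35 read 257.9 and 265.9 CPM in general and 319.4 and 274.2 CPM in HHH of batch 1, and 236.9, 216.8 and 260.1 CPM against 267.7, 262.5 and 368.1 CPM in batch 2. Its log2 fold change was 0.27 (adjusted p = 0.138, SE 0.10) and that of RPL38 0.20 (adjusted p = 0.195, SE 0.09). They were 0.16 and 0.12 without HHH batch 2 replicate 3. Both were named after their values were seen.

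All members together took 3.40% to 3.77% of the counts of a library, apart from HHH batch 2 replicate 3 at 4.45%. The 95% Wilson intervals reached at most 0.0055 percentage points to each side and cover counting error only. In batch 1 general held 3.41% ± 0.01 (SD, n = 2) and HHH 3.40% ± 0.004 (SD, n = 2). In batch 2 general held 3.68% ± 0.08 (SD, n = 3) and HHH 3.97% ± 0.42 (SD, n = 3). The difference of 0.29 percentage points in batch 2 fell to 0.05 without HHH batch 2 replicate 3, and the populations overlapped in both batches. In that library 84 of 87 members were above the general mean of the batch, with a median log2 difference of 0.40. In HHH batch 2 replicates 1 and 2 the median was 0.07 and 0.10. Small nuclear and nucleolar RNAs took 0.727% of its counts, against 0.418% to 0.686% in the rest of batch 2 and 2.71% to 4.97% in batch 1. Mitochondrial RNAs took 0.262% of its counts, against 0.309% to 0.407% in the rest of that batch. Their part in the ribosomal protein level of that library was not tested.

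The balance between the subunits hardly moved. The log2 ratio of large to small subunit counts was 0.36 and 0.39 in the general and 0.40 and 0.44 in the HHH libraries of batch 1. In batch 2 it was 0.48, 0.44 and 0.49 in general and 0.47, 0.47 and 0.39 in HHH. HHH minus general was thus 0.04 in batch 1, where the groups did not overlap, and -0.03 in batch 2, where they did. Taken instead from the median log2 CPM of the members of each subunit, the difference was -0.01 in batch 1 and 0.06 in batch 2, so its sign depended on the measure in both batches. With 2 and 3 libraries a group, an exact two-sided permutation test cannot go below p = 0.333 in batch 1 and p = 0.1 in batch 2, so none is given.

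**Figure D3:**
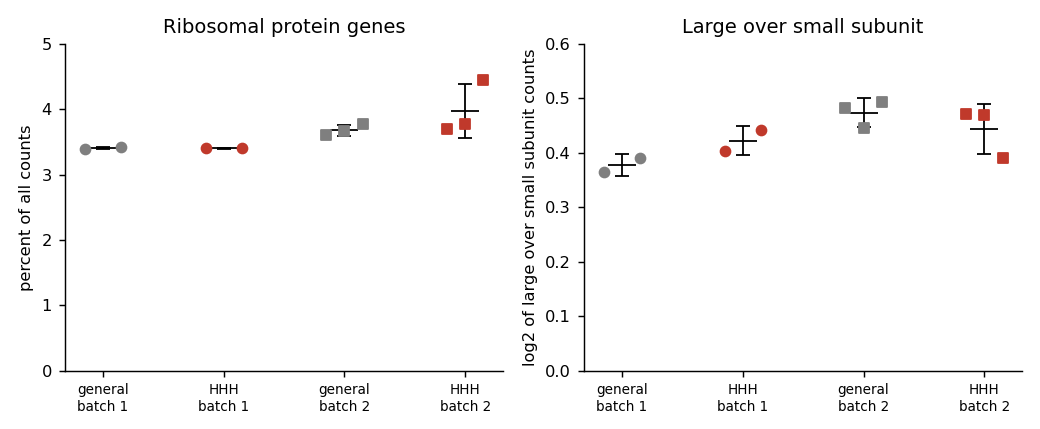
Percent of all counts on the ribosomal protein genes (left) and log2 ratio of large to small subunit counts (right) in each library, by population and batch, with mean and SD (n = 2 or 3). HHH batch 2 replicate 3 stands at 4.45% against 3.40% to 3.77% in the other libraries, and at a ratio of 0.39 against 0.44 to 0.49 in the other libraries of its batch.

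The autosomal paralogs other than RPL22L1 were not called over both batches. RPL26L1, a paralog of RPL26, read 10.99, 11.3 and 10.3 CPM in the general libraries of batch 2 and 12.6, 13.4 and 19.1 CPM in the HHH libraries, with no overlap and a log2 fold change of 0.46 (adjusted p = 0.0434, SE 0.14). Without HHH batch 2 replicate 3 it was 0.25 (adjusted p = 0.0924). In batch 1 it read 14.4 and 15.2 CPM in general and 16.6 and 13.5 CPM in HHH, a log2 fold change of 0.02 (adjusted p = 0.98). RPL26 read 426.8 to 694.8 CPM. RPL26L1 stood at 2.28% to 3.39% of it when both were divided by coding length. It stood at 1.66% to 2.48% when both were divided by canonical transcript length.

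RPL39L is a paralog of RPL39 best known from the testis. It read 26.0 and 6.37 CPM in the general libraries of batch 1 and 6.32 and 7.30 CPM in the HHH libraries. In batch 2 it read 10.7, 14.4 and 15.9 CPM in general and 13.0, 16.5 and 24.2 CPM in HHH. General batch 1 replicate 1 was thus far above the 3 other libraries of its batch. The log2 fold change was -0.23 (adjusted p = 0.752, SE 0.35), and its interaction with batch was 1.64 (adjusted p = 0.162, SE 0.57). With the replicate number as a block, which leaves out general batch 1 replicate 1 and HHH batch 1 replicate 3 for want of a partner, the sign turned, to 0.29 (adjusted p = 0.1277). With general batch 1 replicate 2 left out, that interaction was the 1 called among the members, at 2.32 (adjusted p = 0.0134), with general batch 1 replicate 1 as the lone general library of its batch. RPL39L and RPL39 share 94.9% of 156 coding bases, with an identical run of 44 bases, so reads may have been split between them. RPL39 read 67.4 to 198.6 CPM.

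RPL36AL read 97.6 to 129.0 CPM, above its canonical partner RPL36A at 15.3 to 24.3 CPM. It stood at 421.8% to 765.9% of RPL36A when both were divided by coding length, and at 474.8% to 862.2% by canonical transcript length. Its log2 fold change was 0.11 (adjusted p = 0.422, SE 0.08). The pair shares 289 of 321 coding bases, and RPL36A had 52 pseudogenes in the count table and shared 22.4% of its exonic bases with other genes, the readthrough gene RPL36A-HNRNPH2 among them. RPL36A is uncertain for these reasons, and so is RPL17, which shares bases with RPL17-C18orf32. RPL17 read 144.6 CPM and its readthrough gene 137.2 CPM on average in general batch 1. RPL36AL had no pseudogene by name.

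RPL7L1, a paralog of RPL7 that works in ribosome assembly, read between 94.3 and 131.9 CPM in batch 1, and between 121.5 and 147.9 CPM in batch 2. In batch 2 its HHH libraries, at 147.9, 143.6 and 146.5 CPM, exceeded the general ones, at 138.6, 127.6 and 121.5 CPM, at a log2 fold change of 0.17 (adjusted p = 0.188, SE 0.08). Over all libraries it was 0.01 (adjusted p = 0.959, SE 0.10). RPL7 read 72.3 to 124.0 CPM, and 60 pseudogenes of RPL7 and 12 of RPL7L1 were in the count table. RPL7L1 stood at 75.9% to 186.4% of RPL7 by coding length and at 21.4% to 52.5% by canonical transcript length. Which of the 2 was higher thus depended on the length used. RPS27L, a p53 target and paralog of RPS27, read 30.8 to 61.7 CPM, with a log2 fold change of -0.15 (adjusted p = 0.584, SE 0.14). RPS27 read 33.3 to 49.3 CPM, low for a member of the small subunit.

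The muscle paralog RPL3L was at 0.20 to 0.48 CPM, against 797.0 to 981.7 CPM for RPL3. RPL10L, the testis paralog of RPL10, was at 0 in 6 libraries and at 0.0153 to 0.0429 CPM, 1 or 2 counts, in the 4 others. That is within the limit of 3 counts, so it was not detectable at this depth. RPL10 read 153.4 to 344.2 CPM.

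**Figure D4:**
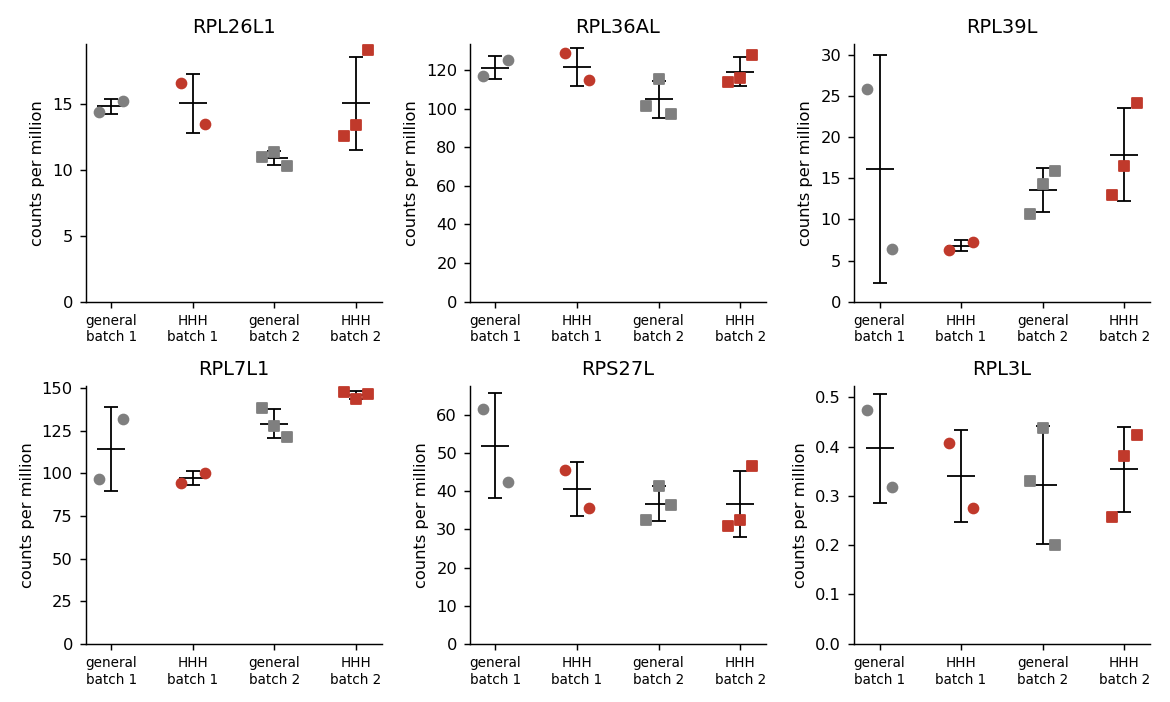
TMM-scaled CPM of 6 autosomal paralogs in each library, by population and batch, with mean and SD (n = 2 or 3). RPL39L stands at 26.0 in general batch 1 replicate 1 against 6.32 to 7.30 in the rest of that batch, and RPL26L1 and RPL7L1 have all HHH libraries above the general ones in batch 2.

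Members named for their role in the ribosome had no call over both batches. Of the stalk proteins, which bind elongation factors, RPLP0 had a log2 fold change of 0.06 (adjusted p = 0.731), RPLP1 of 0.35 (adjusted p = 0.103, SE 0.12) and RPLP2 of 0.13 (adjusted p = 0.352). RPLP1 read 174.2 and 210.2 CPM in general and 352.8 and 273.6 CPM in HHH of batch 1. In batch 2 it read 434.1, 487.0 and 439.6 CPM in general and 466.2, 469.7 and 535.5 CPM in HHH. The groups were thus apart in batch 1 and overlapped in batch 2.

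RPL5 and RPL11, which carry the 5S rRNA into the large subunit and bind MDM2 when assembly fails, had log2 fold changes of 0.06 (adjusted p = 0.788) and 0.07 (adjusted p = 0.664). Of the small subunit, RPSA, also known as a laminin receptor, had 0.08 (adjusted p = 0.673), RPS6, the target of S6 kinase, 0.09 (adjusted p = 0.706), FAU, made as a fusion with a ubiquitin-like protein, 0.14 (adjusted p = 0.341) and RPS27A, made as a fusion with ubiquitin, 0.24 (adjusted p = 0.215). RPS27A read 357.1, 367.0 and 488.4 CPM in the HHH libraries of batch 2 and 327.3, 335.6 and 278.4 CPM in the general ones. They did not overlap there, but did in batch 1. Leaving out HHH batch 2 replicate 3 gave a log2 fold change of -0.03 for RPL5, 0.02 for RPL11, -0.003 for RPSA, -0.03 for RPS6, 0.09 for FAU, 0.14 for RPS27A and 0.03 for RPLP0. RACK1, a scaffold on the small subunit, falls outside the naming rule, and its log2 fold change was 0.01 (adjusted p = 0.963).

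Levels of some members depended on the batch. RPS16, named after its values were seen, lay between 39.7 and 75.3 CPM across the 4 libraries of batch 1 and between 267.8 and 369.4 CPM across the 6 of batch 2, with no overlap and a log2 difference of 2.595 (SE 0.16, batch 2 minus batch 1). RPS29 was at -1.30 (SE 0.13), and these 2 were the only tested members that differed by more than 1. RPLP1 was at 0.94 (SE 0.12) and RPL39 at -0.92. Of the 87 members 8 were called higher and 35 lower in batch 2 (edgeR, adjusted p under 0.05, population as a term), against 24% and 23.9% of all tested genes. RPS16 stood inside batch 1 at 39.7 and 43.3 CPM in general and 75.3 and 51.9 CPM in HHH, a log2 fold change of 0.61 (adjusted p = 0.185, SE 0.16), and in batch 2 at -0.02 (adjusted p = 0.94, SE 0.13).

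**Figure D5:**
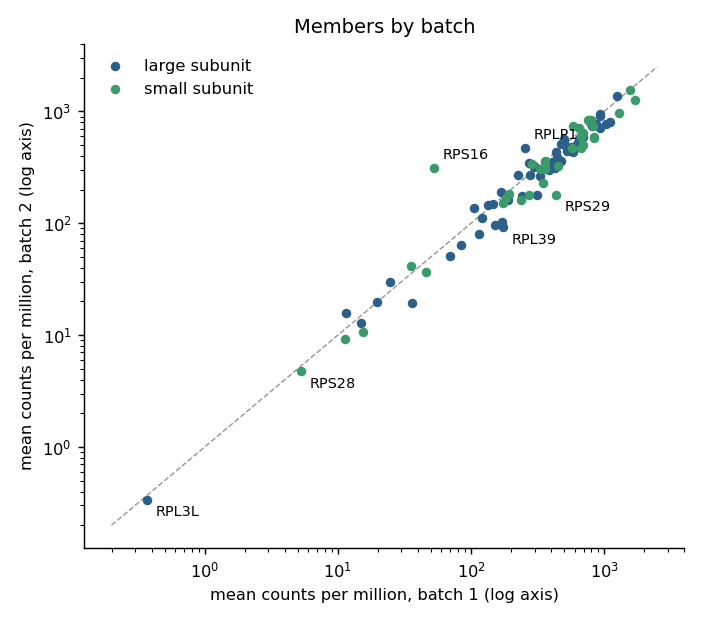
Mean CPM of the 87 tested members in batch 1 (x) and batch 2 (y), each the mean of the general and HHH means, on log axes, by subunit. The dashed line marks equal levels. RPS16 lies far above the line, RPLP1 above it and RPS29 and RPL39 below it.

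Levels between members were compared per kilobase of the GENCODE canonical transcript, as means of 10 libraries. In the large subunit RPL30 (1140 CPM per kilobase), RPL27 (974.6) and RPL26 (942.0) were the highest and RPL21 (46.4), RPL14 (40.5) and RPL36A (26.0) the lowest of 46. The ranges over libraries of the highest 3 overlapped, at 932.3 to 1418, 728.7 to 1224 and 808.3 to 1316. In the small subunit RPS20 (1594 CPM per kilobase) and RPS24 (1266) were the highest of 32, and RPS26 (11.05) and RPS28 (3.73) the lowest. RPS28, at 3.01 to 4.56 CPM per kilobase, and RPS26, at 8.16 to 16.4, did not overlap. From the highest to the lowest member the levels spanned 43.9-fold in the large and 427.7-fold in the small subunit.

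The top of that order depended on the length used. With the union of all exons none of the highest 3 of either subunit remained among the highest 3, and with the coding length, an alternative chosen after seeing the data, 0 of the large and 1 of the small subunit (RPS20) did. The bottom was steadier. RPS26 and RPS28 were among the lowest 3 of the small subunit by all 3 lengths, and RPL21 and RPL36A were among the lowest 3 of the large one. By coding length RPL14 stood at 445.9 CPM per kilobase, since most of its 7136-base canonical transcript is not coding. Pseudogenes in the count table numbered 132 for RPL21, 52 for RPL36A, 36 for RPS26 and 4 for RPS28. Exonic bases shared with other genes made up 9.0%, 22.4%, 0.0% and 20.6% of these 4 genes in the same order. Whether reads shared with pseudogenes or other genes were dropped or counted is not given in the sources used here. These low levels may therefore not be those of the cells.

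Features of the genes that the rule did not use gave small differences in the lean. The 29 tested members with a small nucleolar RNA inside the gene had a median log2 fold change of 0.09, with 28 above 0, and the 58 others 0.13, with 52 above 0. The 44 members with more than 10 pseudogenes in the count table had a median of 0.12, as against 0.11 for the 43 others. The 24 members with a canonical transcript under 600 bases had a median of 0.15 and the 63 longer ones 0.09. Removing the trend with transcript length gave a median over all members of 0.10 while that over all genes rose to 0.04, so the members stood 0.07 above all genes in place of 0.10.

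Other genes of ribosome production were not called over both batches. Of 54 tested ribosome assembly factors 0 were called, against 1.94% of all genes called higher and 3.89% lower. Their median log2 fold change was 0.14, with 49 above 0, against 53% of all genes. It was 0.04 in batch 1, 0.18 in batch 2 and -0.001 on the authors' log2 values. In batch 2 alone 7 were called higher, against 5.13% of all genes. They were, chosen after their values were seen, NMD3, the export adaptor of the large subunit, with 0.44 (adjusted p = 0.0125), and MRTO4, DDX18, NIP7, NIFK, NHP2 and UTP15, at 0.30 to 0.39. Over both batches NMD3 was at 0.29 (adjusted p = 0.0868, SE 0.09). None of 19 non-ribosomal mRNAs with a TOP start was called (12 above 0), against the same shares of all genes, and their median of 0.06 was -0.04 in batch 1, 0.14 in batch 2 and -0.08 on the authors' log2 values. None of 12 noncoding snoRNA host genes was called (8 above 0), and their median of 0.08 was 0.08 in batch 1, 0.09 in batch 2 and -0.07 on the authors' log2 values. On those values the median of all genes was -0.12, below that of each of these lists.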

How the data were processed

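RNA was sequenced from 10 TruSeq libraries of total RNA. The authors deposited whole fragment counts per Ensembl gene without normalization, and a log2 score after TMM and RPKM conversion from which batch means had been removed (largest difference 9.24e-14), used here only as an alternative. The submitters' processing notes name CASAVA 1.8.2, R 3.2.2, limma 3.26.9 and GRCh37. The aligner and counting tool are not given in the sources used here. The design text mentions a kinase inhibitor that no label carries.

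Identifiers were matched to GENCODE 44 (GRCh38) and 88.5% matched. Those without a match took 7.44% to 20.3% of a library's counts and stayed in library sizes. Genes were kept by filterByExpr (minimum count 10), scaled by TMM (factors 0.832 to 1.18) and tested with edgeR 4.0.16 (R 4.3.3), using its two-sided quasi-likelihood test with batch as a term. Benjamini-Hochberg adjustment ran over all 23552 genes, and calls needed an adjusted p under 0.05. The common biological coefficient of variation was 0.128. Alternatives used DESeq2 1.42.0 and limma 3.58.1, and the test was tried on simulated data. The labels give replicate numbers but state no pairing. Deviations of same-numbered libraries from the mean of their group and batch correlated at 0.113 to 0.24 in all 4 pairs. Differently numbered libraries were not compared, so these values cannot show whether the libraries are paired. The main test used no pairing, and the replicate block is an alternative.

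Members named were those called, each autosomal paralog with its partner, the 3 highest and 3 lowest of each subunit per length, and members with set roles, apart from a few that are not reported here. Members and lists were chosen with earlier results of these data known.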

Additional observations from a re-analysis of the deposited data

Results flagged for a closer look

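In groups of 5 libraries, the gap of the highest or lowest library to the next was compared with the range of the group by Dixon's criterion (0.71), in 74 groups of named members and library measures, of which chance marks about 1 in 20. Each group held both batches, so differences between batches widened its range and the rate of 1 in 20 need not hold. The criterion marked HHH batch 2 replicate 3 in 2 members, and no conclusion is drawn from that count. RPL26 read 694.8 CPM there, against 426.8 to 501.4 CPM in the 4 other HHH libraries. RPS6 read 2046 CPM there, against 1382 to 1549 CPM. Both were highest in the same library, so they are not separate observations.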

How the results depend on the processing

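The 1 member called became 0 with no batch term, on the deposited log2 values, in batch 1 alone and at an adjusted p under 0.01. It became 4 without the filter (RPL22L1, RPLP1, RPL35, RPS29), 4 with the GC trend removed together with the replicate block (RPL22L1, RPL35, RPS15, RPL36), and 3 in batch 2 alone. Leaving out single libraries gave 0 (without general batch 2 replicate 2 or replicate 3) to 2 (RPL22L1 and RPS27, without HHH batch 1 replicate 3). All tested genes called there numbered 960, 841 and 2347 in that order, against 1373 in the main test. The replicate block over the 8 libraries with a same-numbered partner gave 1 member, RPL22L1 (log2 fold change 0.71, adjusted p = 0.0166). That block called 1654 of all 23794 tested genes. It had a median of 0.18 and changed no other call. RPL22L1 kept its direction in all 27 alternatives, from 0.24 to 0.84, and its call in 22. The median of the members turned to -0.024 on the deposited log2 values, where all genes shifted by -0.12, and to -0.031 in batch 1 alone. Leaving out single libraries it ran from 0.03 to 0.16. Relative to all genes it was 0.10 over both batches and -0.04 to 0.19 across alternatives. The 3 members called in batch 2 alone became 1 without HHH batch 2 replicate 3, an alternative chosen after seeing the data. Members called for the interaction numbered 0 to 1 on leaving out single libraries. Where 1 library of a group and batch was then left, it was taken to vary like the rest. Of the other ribosome genes 0 were called in the main test. The number was 5 without the filter, 2 with the GC trend removed, 11 with that and the replicate block, and 7 in batch 2 alone. All tested genes rose from 1373 called to 2423, 1814, 2582 and 3166 in these 4. On leaving out single libraries 0 to 9 were called (9 without HHH batch 1 replicate 3, 2 without general batch 1 replicate 2). Of all tested genes, 2347 of 23980 and 1499 of 23916 were called in those 2 fits. The percent of counts on members, HHH minus general within batch, batch 1, ran from -0.0133 to 0.0046 percentage points and turned positive without general batch 1 replicate 2. In batch 2 it ran from 0.05 to 0.43. The subunit ratio by median log2 CPM was -0.011 in batch 1 and 0.065 in batch 2. Of 971 alternative values of 36 named members 961 kept their side of the threshold, and 0 reversed a call, while signs below the threshold changed in 81. The cause of each change was not tested.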
